A study of Mus musculus with 3 samples.

Results

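The cells described here are 357 mouse testis cells in which Cd59b, Tmco5b and Slc36a3 stood out together, of 5023 cells in 3 single-cell RNA libraries. Each cell had been given a score for 12 sets of 3 genes (the mean of the 3 deposited natural log values, set against all cells as a z-score), and a cell belonged to the set, called a trio here, in which it scored highest. The cells of the Cd59b trio numbered 166 of 1418 in the control library, 104 of 1732 with hairpin 1 and 87 of 1873 with hairpin 2. The measured RNA chose these cells, so their levels of the 3 genes are a description and no test was made on them.

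The study asked what the long non-coding RNA gene Gm4665 does in spermatogenesis. An AAV9 vector that encodes RFP, a red fluorescent marker, and 1 short hairpin was injected into the testes of ICR mice at postnatal day 21, a control hairpin (shCtrl) on one side and a Gm4665 hairpin on the other. Somatic cells were then depleted and RFP-positive germ cells were sorted for 3' droplet sequencing. The groups were shCtrl (called control here), Gm4665-shRNA1 (hairpin 1) and Gm4665-shRNA2 (hairpin 2), each 1 library pooled from the cells of 3 mice, so no group had a replicate. All 3 groups had received virus and hairpin. Age at collection and infection per cell were left unstated in the labels. The 2 Gm4665 libraries were matched to their hairpins by the last digit of their column names alone, and if that match is wrong the values of hairpin 1 and hairpin 2 change places.

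Spermatids are the haploid cells that follow the meiotic divisions. As round spermatids they build the acrosome, the vesicle that later meets the egg coat, and the core of the flagellum. As they elongate, histones give way to transition proteins and then to protamines, transcription ends, and many messenger RNAs are stored for later translation. Cd59b encodes the second mouse CD59, a lipid-anchored surface protein that stops the membrane attack complex of complement. Tmco5b encodes a protein with transmembrane and coiled-coil domains, and Slc36a3 a member of the proton-coupled amino acid transporter family.

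In the mm10 annotation (GENCODE vM21), Cd59b lies on the plus strand of chromosome 2 from 104069849 to 104091187, with 8 exon blocks. Tmco5b lies on the same strand of chromosome 2 from 113285732 to 113297190 with 12 exon blocks, and Slc36a3 on the minus strand of chromosome 11 from 55124815 to 55151708 with 13. All 3 are protein-coding, and exons of Tmco5b overlap those of Gm26505 on the same strand, so their reads could be split. The rule chose the cells by these 3 genes, so their common peak gives no ground for a shared control, which was not tested. Their promoters are shown as a description. They come from RefSeq (GRCm38.p6, the mm10 assembly) and run from 250 bases before the start site for 270 bases, 5′ to 3′ on the strand of the gene. The Cd59b window lies inside the gene span given above, downstream of its first base, so its RefSeq start site is an internal one. Capitals mark GTTGCC, a stretch of the X-box that RFX factors bind, or its reverse complement. Among the motifs searched, it alone was found in all 3 windows.

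Cd59b promoter, chr2:104070816-104071085, plus strand: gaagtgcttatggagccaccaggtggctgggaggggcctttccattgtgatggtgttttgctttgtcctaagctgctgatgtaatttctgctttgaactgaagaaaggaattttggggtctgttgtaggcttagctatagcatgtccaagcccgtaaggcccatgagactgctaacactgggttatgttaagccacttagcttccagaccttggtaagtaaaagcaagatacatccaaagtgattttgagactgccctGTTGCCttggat
Tmco5b promoter, chr2:113285482-113285751, plus strand: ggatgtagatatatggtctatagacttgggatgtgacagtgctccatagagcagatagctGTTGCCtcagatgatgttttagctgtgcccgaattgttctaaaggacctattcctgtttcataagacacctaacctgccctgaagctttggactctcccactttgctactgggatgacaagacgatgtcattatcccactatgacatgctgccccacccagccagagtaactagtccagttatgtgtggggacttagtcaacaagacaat
Slc36a3 promoter, chr11:55151689-55151958, minus strand: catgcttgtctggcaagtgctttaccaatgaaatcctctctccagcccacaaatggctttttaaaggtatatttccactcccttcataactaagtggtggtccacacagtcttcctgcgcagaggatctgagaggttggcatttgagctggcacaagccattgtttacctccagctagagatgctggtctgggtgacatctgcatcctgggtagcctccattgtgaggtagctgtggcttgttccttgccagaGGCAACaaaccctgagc

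The 6 letters occurred once in each of the 3 promoters, first base 8 bases after the start site in Cd59b, 190 bases before it in Tmco5b and 3 bases after it in Slc36a3. On either strand they were present in 12.51% of the 32851 RefSeq promoters of 300 bases, which is the background for this match. Of the other motifs searched on both strands, the letters TGACG of the short CRE core were in none of the 3 windows, nor therefore were both longer CRE motifs, which contain them. The TATA letters TATAAA and the MYB letters CAACTG were in none of the 3 either. The SOX letters ACAAAG were in that of Cd59b alone, on the other strand. These are matches of letters only.

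The members differed from one another in how firmly the rule held them. Their Cd59b trio score ran from 0.67 to 5.92 z with a median of 2.85, and the median lead over the next-best trio was 0.88 z. The closest member led the Faiml trio by 0.004 z and the closest non-member trailed it by 0.0025 z, so the border with the Faiml trio has no gap. In all, 53 members led by less than 0.25 z, and 49 other cells had the Cd59b trio second within 0.25 z, 25 of them in the Faiml trio. UMIs (unique molecular identifiers, 1 per captured RNA molecule) of all 3 genes were present in 282 members, of 2 genes in 72 and of 1 gene in 3. All 3 genes were also present in 244 cells outside the trio, 124 of them in the Faiml trio and 42 in the Spam1 trio.

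Levels below are UMIs summed over the cells of a trio and library and scaled to 1000000 (CPM), a count of molecules that needs no length correction in 3' data. In the Cd59b trio cells, Cd59b stood at 178 CPM in the control library, 201 in that of hairpin 1 and 202 in that of hairpin 2. Tmco5b stood at 189, 195 and 168 CPM, and Slc36a3 at 131, 134 and 122 CPM. Each of the 3 was far lower on either side, as the rule requires: in the control, Cd59b had 23.3 CPM in the Spam1 trio and 83.4 in the Faiml trio. Between a pair of libraries the levels of the 3 genes in the members differed by less than 1.25-fold.

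The members held RNA of both round and elongating spermatids. Prm1, a protamine gene, stood at 34187, 33939 and 31278 CPM in the control, hairpin 1 and hairpin 2 cells. These values lay between 13323 CPM in the control Spam1 trio and 61096 CPM in the control Faiml trio. Prm2 stood at 23308, 20086 and 20524 CPM. The transition protein Tnp1 stood at 14202, 13857 and 13487 CPM and Tnp2 at 13601, 12686 and 11821 CPM. The acrosome genes were still high at the same time, and in this the members differed from the Faiml trio. Acrv1, an acrosome matrix protein, stood at 482, 567 and 496 CPM in the members and at 209, 183 and 209.8 CPM in the Faiml trio. Izumo1, the sperm protein that binds the egg's Juno, stood at 257, 264 and 231 CPM in the members and at 67.9, 75.3 and 74.1 CPM in the Faiml trio. In every library the members were the higher ones for both genes.

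After the protamines and transition proteins came 6 other abundant genes. In the control members, Meig1 (needed for the manchette) stood at 6444 CPM, the sperm lactate dehydrogenase Ldhc at 6146, Fabp9 at 4363, the mitochondrial capsule gene Smcp at 4306, ubiquitin gene Ubb at 3894 and Cypt4 at 3335. Cypt4 was higher in the members than in the Spam1 trio, where it had 1959, 1683 and 1829 CPM. The label of round spermatids is therefore met for the acrosome markers, and Prm1 RNA was higher in the members than in the Spam1 trio. For the 12 round spermatid markers the median level was 0.32 below the Spam1 trio and 1.01 above the Faiml trio on the log2 scale, and for the 12 markers of elongating and condensing spermatids 0.60 above and 0.36 below. Across the 8030 genes with at least 10 CPM in some trio, the median differed by -0.40 and 0.30.

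Of the markers of other cells, those of pachytene to diplotene had the highest sums in the members, with 881, 1007 and 1053 CPM. Those of leptotene to zygotene came next with 165, 202 and 165 CPM. The spermatogonia markers summed to 47.4, 34.8 and 46.1 CPM, below the T and NK markers in every library. The T and NK markers, with Nkg7 at 0, summed to 75.1, 71.8 and 83.3 CPM. Only 1 of them had at least 10 CPM in some spermatid trio. Its mean log2 level was 6.275 in the members and highest in the Klk1b3 trio, at 7.417. The 10 Sertoli markers summed to 59.9, 28.4 and 37.2 CPM, with Amh at 0. The 5 Leydig markers summed to at most 3.4 CPM with Insl3 and Hsd3b1 at 0. The 7 macrophage markers summed to 20.3, 29.7 and 40.6 CPM. Of the 7 antibody-lineage markers 3 were in the table, and they summed to 3.99, 15.7 and 77.2 CPM, of which Jchain made 64.4 CPM in the hairpin 2 cells. The part of these markers in the results below was not tested.

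Beyond the 3 genes of the rule, 18 genes were at least 2-fold higher in the members than in each of 6 other trios, from the Ssxb1 to the Klk1b3 trio, in every library. That was 0.426% of 4223 genes with at least 20 CPM in the members, and since all genes of the clustered cells are tied to the rule, it is a description. Of 2364 genes, none was at least 2-fold lower than in all 6 (0.0%). The 12 leading genes peaked in the same cells in all 3 libraries, as the way they were chosen requires.

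**Figure D1:**
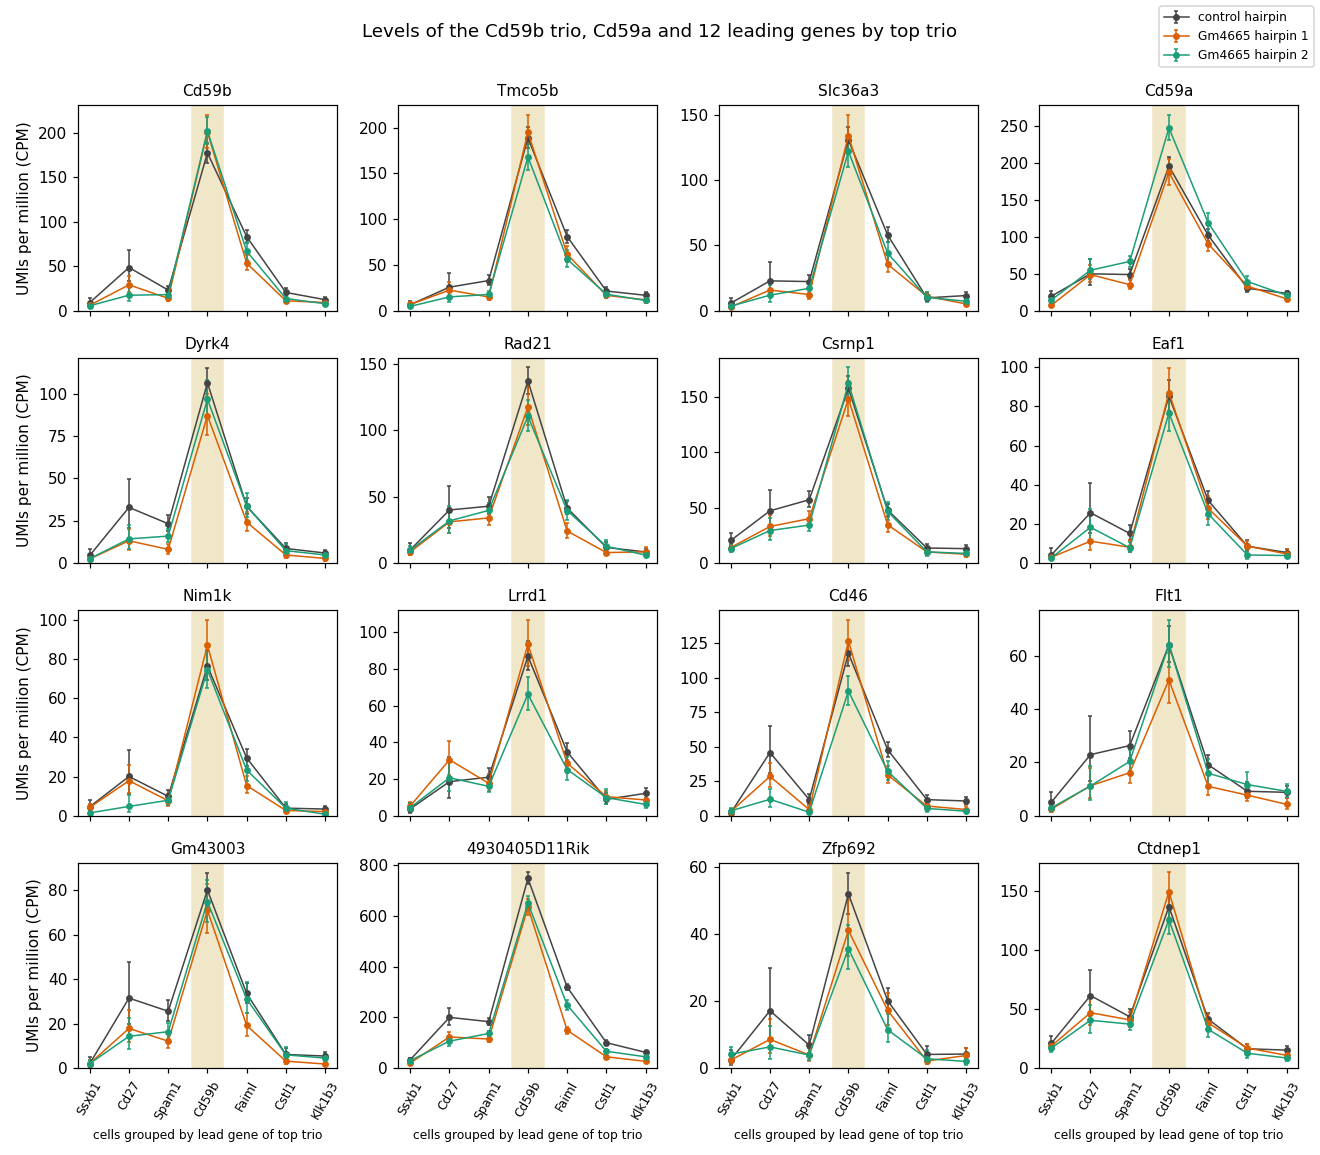
Level in CPM (y axis) of the 3 trio genes, Cd59a and the 12 leading genes in cells grouped by top trio (x axis, in the order of the rule, not a measured time); lines are the 3 libraries and bars exact 95% Poisson intervals. Every panel peaks in the shaded Cd59b trio, where Dyrk4 has 106, 87.0 and 96.7 CPM against 33.6, 24.3 and 33.7 in the Faiml trio.

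The 12 leading genes are described one by one, without a test of a shared function. Dyrk4, a dual-specificity kinase found mainly in the testis, stood at 106, 87.0 and 96.7 CPM in control, hairpin 1 and hairpin 2 members and came out at least 2.82-fold over any other of these trios. Nim1k, a kinase related to AMPK, stood at 76.4, 87.0 and 74.5 CPM. Rad21, the ring-closing subunit of cohesin, stood at 137, 118 and 110.5 CPM, against 42.9, 34.1 and 39.8 CPM in the Spam1 trio. Eaf1, a partner of the ELL transcription elongation factors, stood at 85.3, 87.0 and 76.6 CPM. Csrnp1, a nuclear protein rich in cysteine and serine, stood at 158, 148 and 162 CPM, and Zfp692, a zinc finger protein, at 52.1, 41.2 and 35.7 CPM. For each of these 6 genes the lowest library of the members lay above the highest library of the Faiml trio. They were chosen by their fold over that trio and others in every library, so this is a description.

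The most abundant of the 12 was the long non-coding RNA 4930405D11Rik, with 748, 634 and 650.4 CPM in the members, 2.33-fold or more over each other trio from Ssxb1 to Klk1b3. Ctdnep1, a phosphatase of the nuclear envelope, stood at 137, 149 and 126 CPM. Flt1, known as a receptor for VEGF in endothelium, stood at 64.0, 51.0 and 64.1 CPM, while the 4 endothelial markers summed to 4.90, 3.82 and 6.71 CPM in the same cells. Lrrd1 stood at 86.9, 93.4 and 66.2 CPM and Gm43003 at 80.0, 70.9 and 74.8 CPM. The remaining 6 of the 18 were Col9a3, Defb30, Cyb5d1, RP23-60P18.10, Atp6v1h and 4930535O05Rik, each between 2.01-fold and 2.20-fold over the nearest trio. Of the 18, 12 matched a RefSeq promoter, and 2 of these (16.67%) held GTTGCC or GGCAAC, against 14.14% of all 27025 genes with a promoter.

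Values of 3 genes that, like Cd59b, belong to families of complement regulators are set beside it, with Cd55 chosen after its values were seen. The place and action of their proteins in these cells were not measured. Cd46, the membrane cofactor protein and one of the 12, stood at 118, 127 and 90.3 CPM in control, hairpin 1 and hairpin 2 members, against 11.8, 4.49 and 2.57 CPM in the Spam1 trio and 47.9, 29.6 and 32.2 CPM in the Faiml trio. Cd59a, the first mouse CD59 gene, also lies on chromosome 2 and was no part of the rule. It stood at 196, 188 and 248 CPM in the members, at 49.1, 35.4 and 66.9 CPM in the Spam1 trio and at 103, 90.7 and 119 CPM in the Faiml trio. Cd55, decay accelerating factor, stood at 129, 131 and 106 CPM, against 22.6, 16.7 and 12.3 CPM in the Spam1 trio and 94.3, 50.1 and 65.6 CPM in the Faiml trio. Cd55b, the second mouse gene of that factor, stood at 134, 115 and 124 CPM in the members and was not compared between trios. For Cd46, Cd59a and Cd55 the lowest library of the members lay above the highest library of both neighbouring trios. Cd46 was ranked in by its fold and Cd55 picked by its values, so the choice of genes bears on this. No full list of complement regulators was compared. No transcript of Cd59b matched Cd59a at 98% identity over 100 bases. One short Cd59b transcript of 436 bases shares 185 bases near its 3' end with Efr3a at 99.5% identity and with 4930509G22Rik and Gm28625 at 98.9%, and reads from there could be split.

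Of the 18 genes listed for the CD59 and LY6 surface family, 11 had a level in some trio, and 5 of these peaked in the members, Cd59b of the rule included. Over all genes, 909 of 8030 peaked there. Spaca4, a LY6 protein of the acrosome, stood at 588, 548 and 569 CPM, close to the Spam1 trio (611, 583 and 601 CPM) and above the Faiml trio (241, 216 and 261 CPM). Of the SLC36 family, Slc36a1 had 6.89, 4.25 and 3.66 CPM in the members and Slc36a4 8.71, 6.79 and 8.85 CPM, and Slc36a2 was at 0. Tmco5, the relative of Tmco5b, stood at 755, 749 and 706 CPM, with 764, 773 and 635 CPM in the Faiml trio, higher there in 2 of 3 libraries. Tmco2 stood at 1416, 1369 and 1351 CPM, lower in every library than the 1643, 1656 and 1449 CPM of the Faiml trio.

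The gene groups of sperm building are given as counts of genes that differed in 1 direction in every library. Of all 8030 genes, 2168 were higher and 5004 lower in the members than in the Spam1 trio, so most genes already ran that way. Of 27 acrosome genes with a level, 6 were higher and 15 lower than in the Spam1 trio, with a median of -0.14 against -0.40 over all genes. In the same group 24 were higher than in the Faiml trio in every library and 3 lower, against 4495 and 1270 of all 8030 genes. Of 33 axoneme genes, 30 were lower than in the Spam1 trio in every library and 1 higher, while 29 were higher than in the Faiml trio and 1 lower. The tektin Tekt4 stood at 489, 465 and 538 CPM in the members, at 901, 881 and 938 CPM in the Spam1 trio and at 165, 193 and 210.2 CPM in the Faiml trio.

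**Figure D2:**
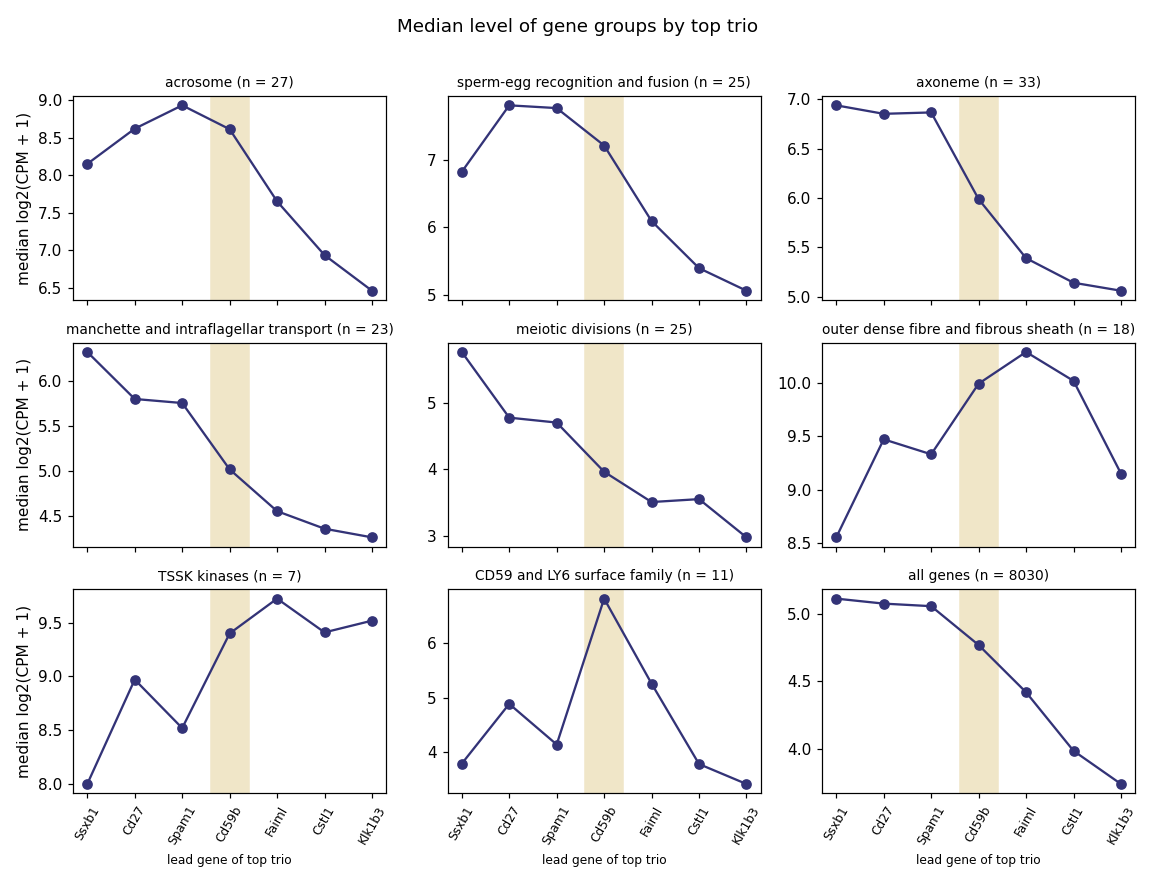
Median log2(CPM + 1), averaged over the 3 libraries (y axis), of 8 gene groups and of all genes in cells grouped by top trio (x axis, in the order of the rule); n is the number of genes with at least 10 CPM in some trio. The acrosome median goes from 8.93 in the Spam1 trio to 8.61 in the shaded Cd59b trio and 7.65 in the Faiml trio, while the outer dense fibre and fibrous sheath median goes from 9.33 to 9.99 and 10.29.

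The outer dense fibres and the fibrous sheath are the stiff layers around the flagellum. Of 18 such genes, 10 were higher and 4 lower in the members than in the Spam1 trio in every library, and 5 were higher and 9 lower than in the Faiml trio. Akap4, the main protein of the fibrous sheath, stood at 1127, 986 and 914 CPM in the members, at 785, 617 and 610.3 CPM in the Spam1 trio and at 1421, 1181 and 1049 CPM in the Faiml trio. Of the 7 genes of testis-specific serine kinases and their substrate, 5 were higher and 2 lower than in the Spam1 trio, and 1 was higher and 4 lower than in the Faiml trio. Of 20 histone replacement and chromatin genes, 11 were higher and 9 lower than in the Spam1 trio, and 9 were higher and 10 lower than in the Faiml trio, an almost even split. Tssk6, a kinase needed for chromatin condensation, stood at 728, 695 and 660.1 CPM, against 271, 199.6 and 223 CPM in the Spam1 trio. The linker histone H1fnt stood at 1454, 1339.7 and 1287 CPM, between the Spam1 trio (758, 553 and 601 CPM) and the Faiml trio (1827, 1716 and 1567 CPM), and nearer the latter in every library.

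Of 17 spermatid transcription factors, 5 were higher and 10 lower than in the Spam1 trio, and 12 were higher and 2 lower than in the Faiml trio. Crem, the CREM activator of spermatid genes, stood at 392, 401 and 422 CPM in the members, at 682, 678 and 679 CPM in the Spam1 trio and at 172, 196 and 204 CPM in the Faiml trio. Its coactivator Fhl5 (ACT) stood at 1054, 1012 and 1046 CPM, above the Spam1 trio (606, 546 and 543 CPM) and below the Faiml trio (1409.8, 1282 and 1208 CPM). Of 25 genes of the meiotic divisions with a level, 25 were lower than in the Spam1 trio in every library. Cyclin A1 (Ccna1) stood at 33.0, 43.3 and 49.4 CPM in the members and at 111, 104 and 122 CPM in the Spam1 trio.

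The members fell into a shallow and a deep class. Of the 357 cells, 206 held fewer than 20000 UMIs, 124 held 30000 or more, and 27 lay between. Shallow cells numbered 96 of 166 in the control, 72 of 104 with hairpin 1 and 38 of 87 with hairpin 2. The median depth was 15603, 10506 and 27303 UMIs per cell, and the deep cells held 72.2%, 64.9% and 82.3% of the summed UMIs. Summed levels thus describe mainly the deep cells. The trio genes themselves were detected on few molecules in the shallow cells, with a median of 7, 6 and 6 UMIs of the 3 genes per cell, against 32, 25.5 and 27 in the deep cells.

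**Figure D3:**
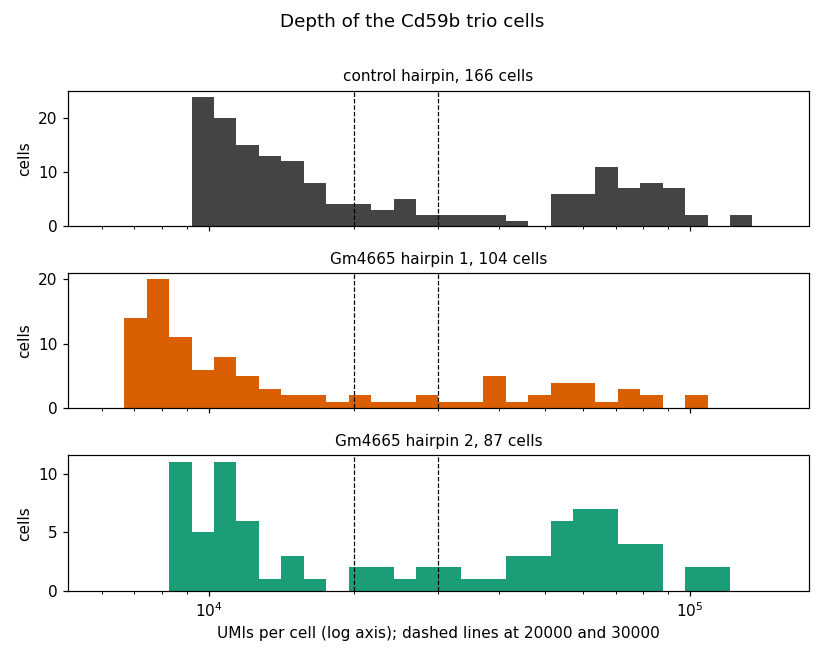
Number of Cd59b trio cells (y axis) by UMIs per cell (x axis, logarithmic) in each library, with dashed lines at 20000 and 30000 UMIs. Each library shows a shallow peak near 10000 UMIs and a broad deep group past 30000, and 72 of the 104 hairpin 1 cells are shallow.

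Shallow and deep members differed in a defined set of genes. Of 4776 genes, 72 (1.51%) exceeded 2-fold in the shallow cells of every library, and none (0.0%) did so in the deep cells. Malat1, a nuclear non-coding RNA, stood at 1973, 2491 and 2273 CPM in shallow members (control first, then each hairpin in turn) and at 595, 756 and 537 CPM in the deep cells. The acrosome matrix gene Zp3r, part of the Cd27 trio of the rule, stood at 430.0, 418 and 464 CPM in the shallow cells. In the deep ones it had 126, 128 and 123 CPM. Adam18 stood at 144, 125 and 129.5 CPM against 37.2, 32.7 and 40.8 CPM. Pdilt, a chaperone of sperm surface proteins, stood at 520.1, 477 and 640.3 CPM against 195, 161 and 181 CPM. Going the other way, Fhl5 had 745, 614 and 533 CPM in the shallow cells and 1166, 1182 and 1149 CPM in the deep ones. Prm1 did not separate the classes, with 38483, 34577 and 27647 CPM in the shallow and 32089, 33439 and 31556 CPM in the deep cells.

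The next-best trio of a member gave a second axis. It was the Faiml trio in 231 members, the Cd27 trio in 58, the Spam1 trio in 45, the Cstl1 trio in 11, the Klk1b3 trio in 4 and a trio outside the spermatids in 8. Between members leaning to Spam1 and members leaning to Faiml, 90 of 4651 genes (1.94%) exceeded 2-fold in the former in every library and 87 (1.87%) in the latter. The Spam1 and Faiml trio scores made this split, and Spam1, Plin2, Asb15, Faiml and Actrt3 of those trios are among the genes counted. The counts are therefore a description. Lrrc34 stood at 523, 432 and 543 CPM in the cells leaning to Spam1 and at 151, 123 and 155 CPM in those leaning to Faiml. Slco6c1, an organic anion transporter of the testis, stood at 147, 91.2 and 153 CPM against 35.2, 24.7 and 42.3 CPM. Pde4a, a phosphodiesterase of cyclic AMP, stood at 219, 164 and 229 CPM against 66.3, 52.8 and 61.6 CPM.

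Lower in the cells leaning to Spam1 were Srgap1 (10.7, 9.12 and 16.2 CPM against 58.7, 69.3 and 67.3 CPM), BC029214 (12.3, 6.08 and 18.5 against 69.6, 53.4 and 77.3 CPM), Zc2hc1b, Mphosph6 and Dcdc2c. Prm1 followed the same axis, with 18713, 21461 and 13612 CPM in the cells leaning to Spam1 and 35629.8, 35983 and 33991 CPM in those leaning to Faiml. Crem ran against it, with 600.0, 544 and 601 CPM against 362, 371 and 378 CPM. Gm4665 in the control members stood at 195 CPM in the cells leaning to Spam1 and 315 CPM in those leaning to Faiml. In the cells leaning to Spam1 these values rest on 21, 12 and 12 cells.

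Cells of the Cd59b trio made up 11.7% of the control library (166 of 1418 cells, exact 95% Clopper-Pearson interval 10.1% to 13.5%), 6.0% of the hairpin 1 library (4.93% to 7.23%) and 4.65% of the hairpin 2 library (3.74% to 5.70%). The intervals of the hairpin libraries lay below that of the control. Intervals here and below cover counting error only. Without replicate libraries the spread between mice is unknown, and a hairpin cannot be told apart from a library. Among the cells of the 6 spermatid trios the shares were 16.2%, 10.4% and 9.92%.

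**Figure D4:**
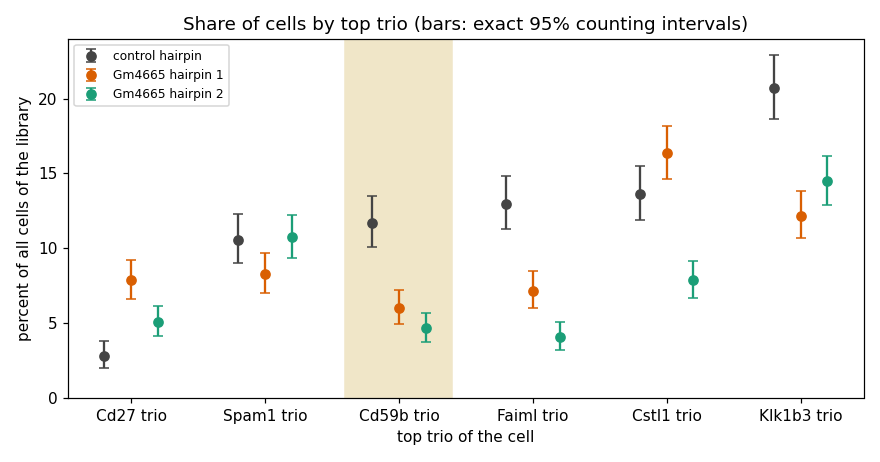
Percent of all cells of a library (y axis) whose top trio was each of the 6 spermatid trios (x axis), in the 3 libraries; bars are exact 95% counting intervals. In the shaded Cd59b trio the control stands at 11.7% and the hairpins at 6.0% and 4.65%, and the Cd27 trio runs the other way with 2.82%, 7.85% and 5.07%.

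The neighbours of the Cd59b trio did not all move with it. The Faiml trio held 13.0%, 7.16% and 4.06% of cells, lower with both hairpins, and the Spam1 trio 10.6%, 8.26% and 10.7%, with overlapping intervals. Leukocyte cells of the Cd52 trio held 1.41%, 5.43% and 9.66% of all cells, and their share bears on every other one. The 3 genes of the rule were themselves lower in the Faiml trio with hairpins (Cd59b 83.4, 53.6 and 67.1 CPM), so the size of the Cd59b trio cannot be told apart from the level of its own genes. When the 3 leading genes Dyrk4, Rad21 and Csrnp1 took the place of the rule's genes, the shares were 11.4%, 5.37% and 5.13%, with 225 cells in common (63.0% of the 357 and 64.3% of the 350 new ones). These 3 genes were ranked by their fold in the members of the rule, so the like shares are no independent check. In cells with at least 30000 UMIs the shares were 12.6%, 5.65% and 8.57%, and in cells with fewer than 20000 UMIs 13.2%, 6.71% and 3.48%. The gap for hairpin 2 was thus smaller in deep cells, where its interval (6.25% to 11.4%) overlapped that of the control (9.69% to 16.1%).

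Gm4665, the target, was lower with both hairpins in the members. It stood at 304 CPM in control members, 44.2 in those of hairpin 1 and 70.8 in those of hairpin 2, which is 6.88-fold and 4.29-fold lower (intervals of the ratio to the control 0.118 to 0.177 and 0.202 to 0.267). UMIs of Gm4665 were found in 98.2%, 40.4% and 73.6% of the members at median depths of 15603, 10506 and 27303 UMIs. In cells thinned to 10000 UMIs they were found in 87.0%, 32.1% and 49.3%, leaving out 12, 51 and 16 shallower members. In the leukocyte cells of the Cd52 trio (20, 94 and 181 cells) the shares were 65.0%, 9.57% and 14.9%. Median depths there were 14002, 9700 and 13294 UMIs. The control share rests on 13 of 20 cells (interval 40.8% to 84.6%). When thinned, the shares were 40.0%, 9.30% and 8.97% of 20, 43 and 145 cells. The source of these UMIs was not tested. Gm4665 is annotated as antisense, on the minus strand of chromosome 9 from 115180404 to 115186058. Its exons overlap those of no other gene in that annotation, and the strand setting of the counts was not given in the sources used here.

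By summed levels, most genes differed little between the members of the 3 libraries, while some differed by more than Gm4665, as given below. Of 6151 genes with a mean of at least 10 CPM and at least 30 UMIs, 59.6% lay within 1.25-fold of the control with both hairpins and 86.2% within 1.5-fold. The median log2 difference (with a pseudocount of 1 CPM) was 0.02 with hairpin 1 and 0.01 with hairpin 2. Past 2-fold with both hairpins stood 17 higher genes (0.276%) and 13 lower ones (0.211%). With hairpin 1 taken alone these were 58 (0.943%) and 77 (1.25%), and with hairpin 2 taken alone 51 (0.829%) and 46 (0.748%). Between the hairpins, 101 genes (1.64%) were past 2-fold toward hairpin 2 and 47 (0.764%) toward hairpin 1. The same counts were 11 and 16 of 6496 genes in the Spam1 trio (0.169% and 0.246%) and 70 and 13 of 5600 in the Faiml trio (1.25% and 0.232%). Weighting each member alike instead of each UMI gave 80 higher and 15 lower of 6430 genes. The 2 hairpins share 1 control library, so their counts are not independent.

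**Figure D5:**
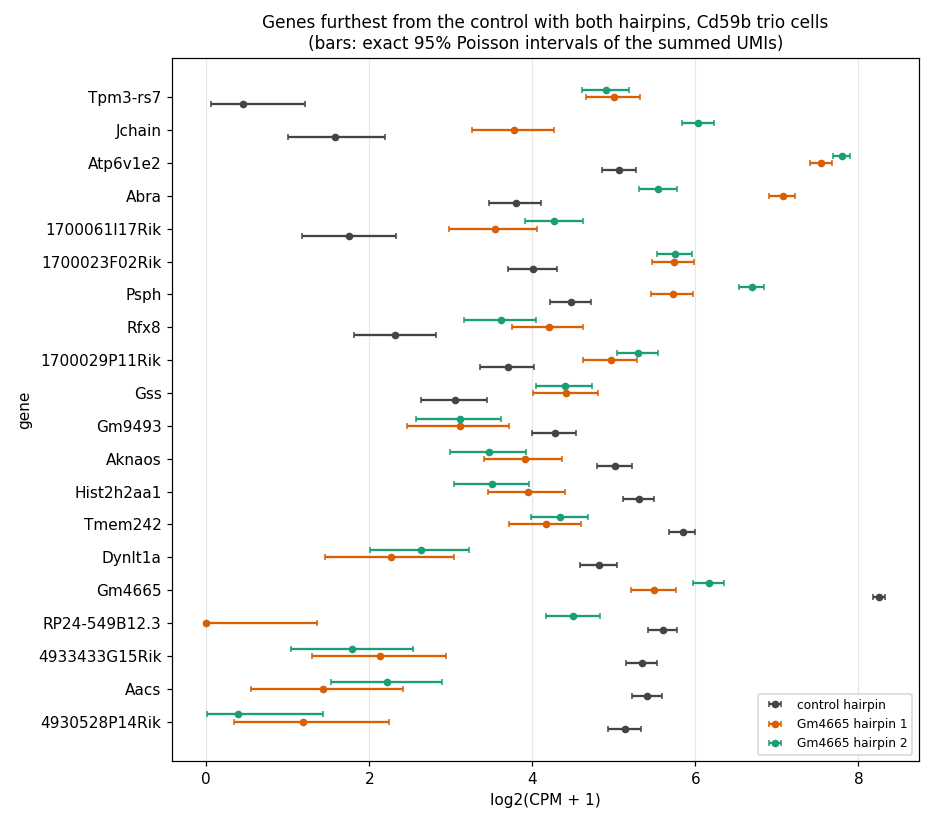
Level as log2(CPM + 1) (x axis) in Cd59b trio cells of the 10 genes highest and the 10 lowest against the control with both hairpins (y axis); points are libraries and bars exact 95% Poisson intervals of the summed UMIs. For Atp6v1e2 the control stands at 32.5 CPM and the hairpins at 185 and 221, and for Aacs the control at 41.5 CPM and the hairpins at 1.70 and 3.66.

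Higher with both hairpins was a mixed set of genes. Atp6v1e2, the testis form of the E subunit of the proton pump, stood at 32.5 CPM in control members, 185 in those of hairpin 1 and 221 in those of hairpin 2 (ratios 5.70, interval 4.78 to 6.82, and 6.80, 5.77 to 8.06). In the Spam1 trio Atp6v1e2 stood at 30.5, 241 and 273 CPM and in the Faiml trio at 28.8, 174 and 198 CPM, so both neighbours were also higher with both hairpins. Psph, an enzyme of serine synthesis, stood at 21.2, 51.8 and 102 CPM. Abra, an actin-binding protein, stood at 12.9, 133 and 45.8 CPM, and in shallow members at 15.9, 109 and 19.6 CPM. Gss, glutathione synthetase, stood at 7.26, 20.4 and 20.1 CPM.

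The rest of the higher genes were RNAs of low level or of uncertain identity. The non-coding RNA 1700023F02Rik stood at 15.1, 52.2 and 52.8 CPM and 1700061I17Rik at 2.36, 10.6 and 18.3 CPM. Rfx8, of the RFX factor family, stood at 3.99, 17.4 and 11.3 CPM, and 1700029P11Rik at 12, 30.1 and 38.1 CPM. Tpm3-rs7 had 2 UMIs in the control and 73 and 95 with the hairpins (ratios 85.4, 22.8 to 719, and 79.9, 21.5 to 669), and its transcript matches Tpm3 at 99.1% identity over 2108 bases, so reads could be split between the pair. The other 6 were Hspa5, Gm15579, Gm26972, Tbp, Hmgn2 and 1700026J12Rik, all between 1.01 and 1.27 on the log2 scale.

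Jchain, the joining chain of antibodies, stood at 2.0, 12.7 and 64.4 CPM in the members. In hairpin 2 it was near the same level in the Spam1 trio (65.7 CPM), the Faiml trio (65.6 CPM) and the Cstl1 trio (69.4 CPM). In the leukocyte cells of the Cd52 trio it stood at 512, 17454 and 12022 CPM. Jchain UMIs were in 6.02%, 23.1% and 79.3% of the members, and in 1.3%, 17.0% and 42.3% of those thinned to 10000 UMIs. In the Cd52 trio the thinned shares were 5.0%, 37.2% and 66.2% of 20, 43 and 145 cells. The part of free RNA in this value was not tested.

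Lower with both hairpins besides Gm4665 were 2 lincRNAs with few UMIs left. The RNA 4933433G15Rik stood at 39.6 CPM in the control and at 3.4 and 2.44 CPM with the hairpins, 11.6-fold and 16.2-fold lower. The RNA 4930528P14Rik had 188, 3 and 1 UMIs in control, hairpin 1 and hairpin 2 members (ratios 0.037, 0.0076 to 0.111, and 0.0089, 0.0002 to 0.0505). Aacs, a ligase that turns acetoacetate into acetoacetyl-CoA, stood at 41.5, 1.70 and 3.66 CPM. It stood at 16.1, 7.40 and 8.71 CPM in the Spam1 trio and at 33.7, 0.32 and 1.48 CPM in the Faiml trio.

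Tmem242, a factor of ATP synthase assembly in mitochondria, stood at 56.4, 17.0 and 19.2 CPM, with 74.1, 29.1 and 28.1 CPM in the Spam1 trio. The antisense RNA Aknaos stood at 31.2, 14.0 and 10.1 CPM. RP24-549B12.3 had 262, 0 and 71 UMIs, at least 37.3-fold lower with hairpin 1 (against a floor of 3 UMIs in the library) and 2.19-fold lower with hairpin 2. Reads of Dynlt1a (27.2, 3.82 and 5.19 CPM), Hist2h2aa1 (38.6, 14.4 and 10.4 CPM), Gm9493 (18.3, 7.64 and 7.63 CPM) and AK157302 could be split with near-identical copies, Dynlt1f, Hist2h2aa2, Rps7 and Isca1. The remaining lower genes were Rpl29 (31.6, 10.6 and 14.3 CPM), which has pseudogene copies, and Cldn34d.

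The gene groups of sperm building differed little between the libraries, and each list is given by its counts. By any amount, 35.1% of all 6151 genes were higher and 30% lower with both. With TMM scaling, a trimmed-mean correction of library size, these shares were 27.8% and 38.7%, so small differences in direction depend on the scaling. Of 27 acrosome genes compared, 12 were higher and 9 lower with both hairpins (7 and 14 with TMM), with medians of 0.03 and 0.02 on the log2 scale that turn to -0.02 and -0.03 with TMM. Fam209 stood at 1775, 1881 and 1851 CPM and Spaca3 at 722, 808 and 785 CPM. Of 31 axoneme genes, 18 were higher and 3 lower (13 and 8 with TMM). The axoneme medians were 0.33 and 0.51 in shallow members and 0.02 and 0.07 in deep ones, where 14 of 30 were higher and 7 lower.

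The outer dense fibre and fibrous sheath genes were lower in 12 of 18 cases and higher in 2 (13 and 1 with TMM), with medians of -0.07 and -0.09. Akap4 was lower with both, as its values above show, and Oaz3, the testis antizyme, stood at 2365, 2200.4 and 2360.0 CPM. Of the 6 compared genes of the testis-specific serine kinase group, 5 were lower with both and none higher (6 and none with TMM), their medians being -0.065 and -0.121. Its substrate Tsks stood at 762, 704 and 572 CPM. Of 18 glycolysis genes, 7 were higher and 11 lower (5 and 12 with TMM). Gapdhs, the sperm form of the glycolytic dehydrogenase, stood at 2221, 1787 and 1912 CPM and Pgk2 at 675, 596 and 586 CPM.

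The histone replacement genes were higher with both in 5 of 19 cases and lower in 8 (3 and 13 with TMM). Their summed level was 95357, 90563 and 86948 CPM. Of 14 sex-chromosome genes 1 was higher and 8 were lower (none and 9 with TMM), with medians of -0.22 and -0.02, and Cypt1 stood at 862, 728 and 861 CPM. Among 23 genes of ubiquitin and the proteasome, 5 were higher and 12 lower (3 and 15 with TMM). The transcription factor group was even, with 7 of 15 higher and 6 lower (4 and 6 with TMM).

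For genes of the meiotic divisions and of mitochondria the medians also differed between shallow and deep members. Of 14 meiotic division genes, 10 were higher and 1 lower with both (9 and 1 with TMM), with medians of 0.41 and 0.43. Birc5, of the chromosomal passenger complex, stood at 53.0, 80.3 and 79.3 CPM, while Ccnb1, cyclin B1, had 30.7, 44.2 and 42.7 CPM. In shallow members 12 of 13 were higher and none lower, with medians of 0.86 and 0.93. In deep members 5 of 12 were higher and 5 lower, with medians of -0.02 and 0.28. Of 8 mitochondrially encoded genes, 5 were higher and none lower in all members (medians 0.30 and 0.13), 9 of 9 were higher in shallow members (medians 1.48 and 1.35), and 8 of 8 were lower in deep members (medians -1.35 and -0.23). Shares of shallow cells were 57.8%, 69.2% and 43.7% in the 3 libraries. With members under and over 20000 UMIs weighted to the control mix, the meiotic medians were 0.29 and 0.59 and the mitochondrial ones 0.13 and 0.33. With only members leaning to Spam1 or Faiml, weighted to the control mix, the meiotic medians were 0.06 and 0.25. The mitochondrial ones were then -0.24 and -0.04. The cause of these differences was not tested.

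Some large differences were of like size in both classes. Atp6v1e2 stood at 29.2, 161 and 186 CPM in shallow members and at 34.7, 192 and 231 CPM in deep ones. Gm4665 stood at 377, 47.2 and 78.2 CPM in shallow members and at 283, 41.2 and 69.3 CPM in deep ones. Counted in shallow members alone, 169 genes stood past 2-fold higher with both hairpins and 41 past 2-fold lower, of 5972. In deep members alone the counts were 12 and 18 of 5954.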

How the data were processed

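Natural log (ln) values of 5023 cells and 22843 genes were used, which the authors deposited after scaling each cell to 10000 UMIs and adding 1. Cell Ranger 1.3.1, Seurat 2.0.0 and mm10 are named in the submitters' processing notes. Strand, annotation, cell filters: not given in the sources used here. Whole UMIs were recovered from the smallest non-zero value of each cell (100.0% of 20140203 values whole within 0.01). The libraries held 1418, 1732 and 1873 cells with medians of 19366, 14668 and 16518 UMIs. Of the cell barcodes, 18 were seen in more than 1 library, and 2 of these belonged to a Cd59b trio cell.

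No cell was removed. Scrublet, run through scanpy 1.11.5, marked 20 cells (0.398%, 1 of them in the Cd59b trio), too few to count as working. UMIs were summed by trio and library with Python 3.11.15, numpy 2.4.6, pandas 2.3.3 and scipy 1.17.1, and figures drawn with matplotlib 3.10.9. With 1 library a group no test, SE or p was computed. Genes named are the trio, the 12 leading and 10 most abundant genes, the 10 furthest from the control per direction with both hairpins, up to 4 members per gene list, and 5 per direction between cells leaning to Spam1 and to Faiml. Genes at least 2-fold away outside these, and genes set beside them such as Cd55, were picked after their values were seen. The members and lists were chosen with earlier results of these data known. GENCODE vM21 held 95.8% of the gene symbols. The fold code was run on simulated libraries with Poisson counting error alone, which cannot check spread between cells, mice or libraries. The trio scores were run on shuffled values with the 3 genes set high in chosen cells, which checks only the code. Of the genes at least 2-fold away, 1 is not reported here.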

Additional observations from a re-analysis of the deposited data

How the results depend on the processing

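The share of Cd59b trio cells was lower with both hairpins than in the control under all 10 other settings tried, of which 4 were chosen after seeing the data. For the control, hairpin 1 and hairpin 2 it was 16.2%, 10.4% and 9.92% of spermatid trio cells, and 30.7%, 20.5% and 19.0% of the Cd27, Spam1, Cd59b and Faiml trios. Thinned to 10000 UMIs, hairpin 1 stood at 4.16%. For hairpin 2 it was 8.57% in cells of at least 30000 UMIs, where its interval overlapped that of the control, and 3.48% in cells of fewer than 20000. The setting with Dyrk4, Rad21 and Csrnp1 used genes ranked by their fold in the members, so it is no independent check. Genes at least 2-fold higher with both hairpins numbered 4 at a mean of at least 50 CPM, 103 at a mean of at least 1 CPM, 10 with a pseudocount of 5 CPM, 80 with each cell weighted alike, 26 at a margin of at least 0.25 z, 35 with z-scores within each library and 169 in cells of fewer than 20000 UMIs. Genes lower numbered 1 at 50 CPM, 49 at 1 CPM, 7 with the pseudocount of 5 and 41 in cells of fewer than 20000 UMIs. Of the 30 genes, 12 stayed at least 2-fold away under all 13 settings (6 higher and 6 lower), Gm4665, Atp6v1e2 and Aacs among them. For 1700029P11Rik with hairpin 1, the log2 difference turned to -0.015 in cells of at least 30000 UMIs. The cause of these shifts was not tested. No paired analysis was possible because each group is 1 library. Depth limits genes below about 10 CPM.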
